A study of Mus musculus with 9 samples.

Results

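Transcripts of the macrophage migration inhibitory factor (MIF) family and of its receptors were read in the livers of hyperlipidemic mice with and without the MIF-2 gene. The 7 genes were taken by name from the deposited table of 27179 genes: the ligand genes *Ddt*, which encodes MIF-2 (also called D-dopachrome tautomerase), and *Mif*, and the receptor genes *Cd74*, *Cd44*, *Cxcr2*, *Cxcr4* and *Ackr3*. All 7 had a line in the table, and 6 passed the filter on low counts (a minimum of 1 count in 3 libraries of the same genotype); *Cxcr2* did not. The 9 libraries came from frozen liver sections of mice on a C57BL/6 background. The mice were fed a cholesterol-rich high-fat diet (HFD) for 12 weeks from an age of 8 weeks. The study's main experiment of this length used female littermates, but male livers were also examined. Neither the labels nor the methods for these sections give the sex. Of the 9 libraries, 5 carry the label WT and were made from Apoe-/- mice. The other 4 carry the label DKO and were made from Mif-2-/-Apoe-/- mice. Both groups thus lack apolipoprotein E and differ in the global deletion of *Mif-2*. A figure legend of the study gives 4 mice per group, and its methods state that lysates of several sections were combined. The 5th Apoe-/- library is not accounted for, so the spread between libraries is not known to be a spread between animals.

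MIF and MIF-2 are small secreted proteins with related folds that act as atypical chemokines. CD74, better known as the invariant chain that escorts MHC class II molecules, also reaches the cell surface, binds both ligands, and signals together with its co-receptor CD44. MIF also engages the chemokine receptors CXCR2 and CXCR4, for which the classical ligands are ELR-positive CXC chemokines and CXCL12, and the atypical chemokine receptor ACKR3, which takes up CXCL12. For MIF-2, the study reports CXCR4 as a receptor and cites earlier work in which it did not bind CXCR2. It also cites work on interactions of MIF-2 with ACKR3. In the liver, hepatocytes make both MIF proteins, while CD74 is chiefly a product of antigen-presenting cells such as Kupffer cells, dendritic cells and B cells.

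The ligand genes lie on the minus strand of chromosome 10 (GRCm38, GENCODE M21), *Ddt* from 75771230 to 75773414 and *Mif* from 75859353 to 75860240, with 85938 bases and 4 genes (*Gstt3*, *Gstt1*, *Gstt4* and *Gstt2*) between them. Each has 3 exons in its longest form, and the coding part of the first exon is 108 bases in both. The pair is shown because the genotype comparison turns on whether the counts of one ligand can hold reads of the other. Capitals mark the second codon, which encodes the proline that becomes the first residue of the mature proteins. The *Ddt* stretch is chr10:75773216-75773323 and the *Mif* stretch chr10:75860061-75860168, both given 5′ to 3′ on the minus strand.
Ddt: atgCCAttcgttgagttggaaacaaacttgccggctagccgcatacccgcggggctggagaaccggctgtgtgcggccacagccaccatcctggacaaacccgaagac
Mif: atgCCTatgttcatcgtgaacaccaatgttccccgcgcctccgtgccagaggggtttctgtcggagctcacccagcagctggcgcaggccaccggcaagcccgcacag

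Over these 108 bases, compared position by position without gaps, 46 positions (42.6%) held the same base. The whole coding sequences had 357 bases (118 codons before the stop) in *Ddt* and 348 bases (115 codons) in *Mif*. In an alignment with gaps, they were identical at 218 of the 323 positions aligned to each other (67.5%). The percentages come from unlike measures and do not compare the first exon with the rest. The longest run of bases that any *Ddt* transcript shared with any *Mif* transcript was 10 bases. *Gm20441*, a protein-coding gene on the same strand with no line in the table used here, shared 202 of the 743 stretches of 31 bases in *Ddt* transcripts. *Mif* has closer copies elsewhere: 8 other annotated genes shared at least 1 stretch of 31 bases with it, among them processed pseudogenes, and only 1 such pseudogene, *Gm8762*, had a line in the table, with 0 to 36 counts per library. The antisense gene *C230062I16Rik* overlaps *Mif* and had 22 to 226 counts per library. On the opposite strand it shared 388 of the 742 stretches of 31 bases in *Mif* transcripts. Whether strand was used in counting is not stated, and reads from the shared stretches cannot be assigned to either gene from the counts. The levels of *Mif* below carry this limit. The level of *C230062I16Rik* was 17.4 ± 4.49 CPM (SD, n = 5) for Apoe-/- livers, against 32.4 ± 18.4 CPM (SD, n = 4) without *Mif-2*. Its log2 fold change of 0.90 did not pass the test (edgeR, adjusted p = 0.417).

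Total counts per library ranged from 2318148 to 10764182. Normalized levels are given as CPM, the counts scaled to the library size after TMM normalization. That library size was taken after the filter on low counts and without the most abundant genes, which were left out of the tests. *Alb* was among those genes, so its CPM and the sums that hold it are not shares of the total counts. On this scale 3 counts, taken as the floor of detection, corresponded to 0.402 to 1.70 CPM. The floor covers counting error only, whereas the 95% intervals of fold changes come from the fit and include the spread between libraries. The libraries were liver by their markers, with 23607 to 89138 CPM of *Alb* (albumin), but they differed in how much of the abundant hepatocyte RNA they held. The summed CPM of 8 hepatocyte genes ran from 85539 to 249725 in Apoe-/- and from 73374 to 222373 in Mif-2-/-Apoe-/- livers. Apoe-/- replicate 5 and Mif-2-/-Apoe-/- replicates 1, 3 and 4 held the 4 lowest values, and Mif-2-/-Apoe-/- replicate 2 the second highest. The other marker lists overlapped between the genotypes. Endothelial genes, led by *Stab2*, summed to 205 to 320.3 CPM in Apoe-/- and 135 to 406 CPM in Mif-2-/-Apoe-/- livers, and stellate and fibroblast genes, led by *Col1a1*, to 233 to 508 and 260.4 to 550.3 CPM. Cholangiocyte genes, led by *Krt19*, summed to 13.4 to 46.1 and up to 47.1 CPM, and T and NK cell genes, led by *Nkg7*, to 3.10 to 29.1 and 7.32 to 27.8 CPM. In bulk tissue, fewer cells of a type and less RNA per cell cannot be told apart.

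*Ddt*, the deleted gene, checked the labels. Its counts were 4304, 4806, 1815, 4820 and 1205 in Apoe-/- replicates 1 to 5 and 27, 6, 21 and 11 in Mif-2-/-Apoe-/- replicates 1 to 4. In CPM these were 590.5, 644, 852, 972 and 233 against 5.49, 3.41, 5.29 and 2.51. The groups did not overlap, and the level in Mif-2-/-Apoe-/- livers was 0.647% of that in Apoe-/- livers, a log2 fold change of -7.27 (SE 0.54, edgeR adjusted p = 2.23e-05). The counts left after the deletion were above the floor in each library, and the table does not show where in the gene they fell. Among the 7 genes, *Ddt* was the only one called at an adjusted p under 0.05, by edgeR and by DESeq2, beside 22 of all 16860 genes tested (0.130%) by edgeR and 739 of 14030 (5.27%) by DESeq2. DESeq2 gave no adjusted p for *Cxcr2* and *Cxcr4*. Those 22 were split into 12 higher and 10 lower in Mif-2-/-Apoe-/- livers. Separate edgeR fits called 30 genes with TMMwsp (12 higher and 18 lower) and 27 with RLE scaling (12 higher and 15 lower).

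*Mif*, the remaining ligand gene, did not rise in the absence of *Ddt*. Its levels were 646, 763, 791, 1021 and 323 CPM in Apoe-/- livers and 228, 668, 189 and 202 CPM in Mif-2-/-Apoe-/- livers. The groups overlapped: 3 of the 4 Mif-2-/-Apoe-/- libraries lay below each Apoe-/- library, whereas replicate 2 lay above Apoe-/- replicates 1 and 5. The means were 709 ± 255 CPM (SD, n = 5) and 322 ± 232 CPM (SD, n = 4). The log2 fold change was -1.14 (95% interval -2.08 to -0.20) and the unadjusted p of edgeR was 0.0204. Among all genes tested, 6.52% had an unadjusted p under 0.05 in the same direction and 8.99% in the opposite direction. After adjustment over all genes it was not called (adjusted p = 0.242, DESeq2 adjusted p = 0.138). Without Mif-2-/-Apoe-/- replicate 2 the log2 fold change was -1.88 and *Mif* was called (edgeR adjusted p = 0.039).

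**Figure D1:**
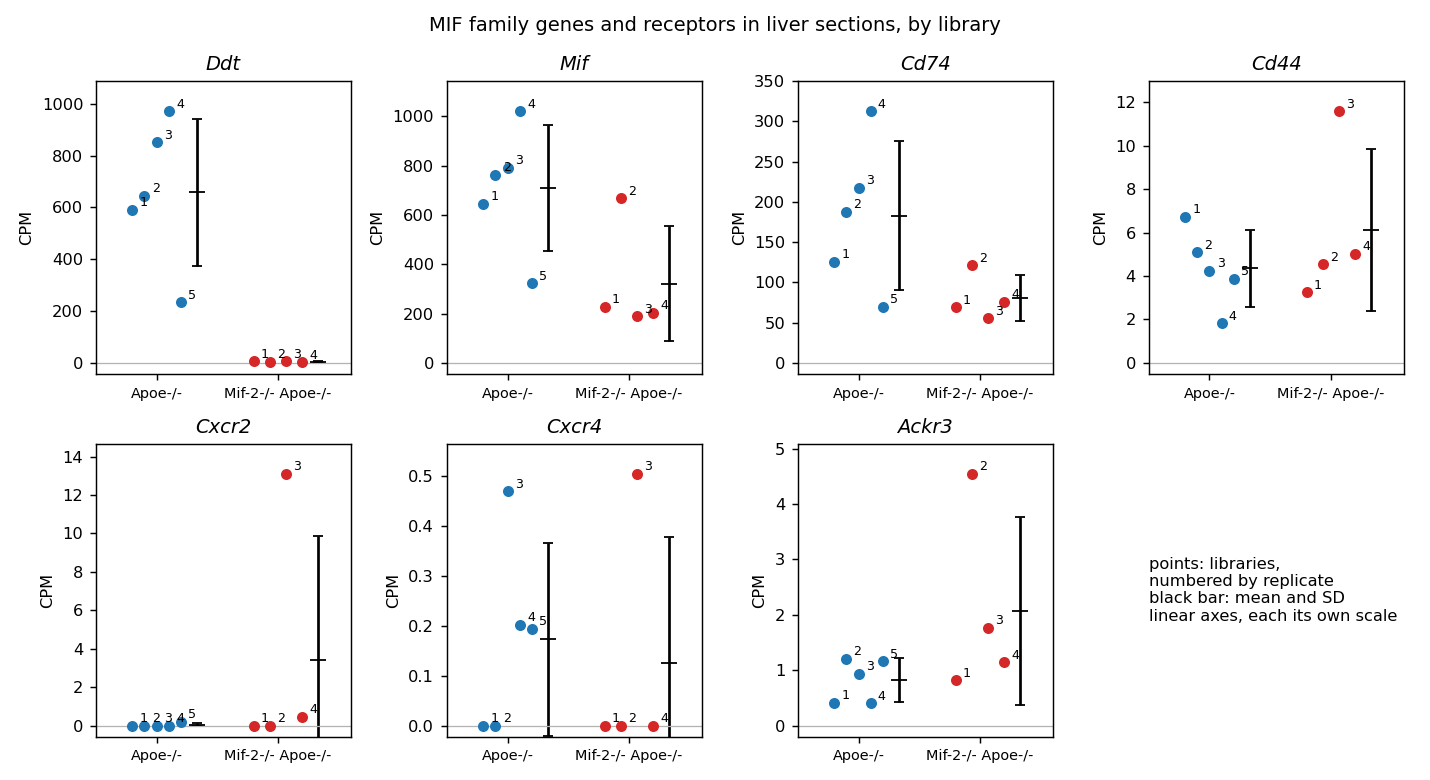
Level of each of the 7 genes in CPM (linear y axes, each with its own scale) in the 5 Apoe-/- and 4 Mif-2-/-Apoe-/- libraries, numbered by replicate, with black bars for the mean and SD (lower ends cut at the axis). *Ddt* is near 0 in the Mif-2-/-Apoe-/- libraries, *Mif* and *Cd74* overlap between the genotypes, and the high *Cxcr2* point is Mif-2-/-Apoe-/- replicate 3 at 13.1 CPM.

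The level of *Mif* moved with *Alb* from library to library. Apoe-/- replicate 5, with the lowest *Mif* of its group, also had the lowest *Alb* of its group, and Mif-2-/-Apoe-/- replicate 2 had the highest of both in its group. *Mif* was therefore also expressed per 1000 *Alb* counts within each library, a measure chosen after the values were seen. It was 10.5, 11.1, 11.5, 11.5 and 12.2 in Apoe-/- livers and 7.34, 7.67, 8.005 and 5.78 in Mif-2-/-Apoe-/- livers. On this scale the groups did not overlap, and Apoe-/- livers varied by a coefficient of variation of 5.48% instead of the 36.0% of the CPM values. The mean difference in the log2 ratio was -0.66, so the ratio was 1.58-fold higher in Apoe-/- livers (two-sided exact permutation test, p = 0.0159, the lowest value possible with this number of libraries). Every Mif-2-/-Apoe-/- library was below every Apoe-/- library for 1.45% of all genes tested in the ratio to *Alb*, and for 2.24% in CPM. Per 1 count of *Apoa1*, which encodes the main protein of high-density lipoprotein, in place of *Alb*, the difference in the log2 ratio was -1.16 (exact permutation p = 0.0159). The part of hepatocyte RNA in the CPM difference was not tested beyond these ratios, and *Alb* itself was not shown to be equal between the genotypes.

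In Apoe-/- livers the ligand genes stood close to each other. Per kilobase of exon, the ratio of *Ddt* to *Mif* was 0.88, 0.814, 1.04, 0.917 and 0.696 in replicates 1 to 5, with a mean of 0.869 ± 0.127 (SD, n = 5). The coefficient of variation of this ratio was 14.6%, against 43.0% for the CPM of *Ddt* and 36.0% for that of *Mif*. In Mif-2-/-Apoe-/- livers the ratio was between 0.00491 and 0.0270.

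The 4 genes between the ligand genes encode glutathione transferases, and none was called by edgeR. *Gstt3* had a log2 fold change of -1.43 (edgeR adjusted p = 0.156, DESeq2 adjusted p = 0.0136) and *Gstt2* of 0.88 (edgeR adjusted p = 0.216, DESeq2 adjusted p = 0.0572). *Gstt1* had -0.60 (DESeq2 adjusted p = 0.449), and *Gstt4* was near the floor, with means of 0.268 and 2.12 CPM.

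*Cd74*, on chromosome 18, was the most abundant receptor gene. It had 125.7, 188, 217, 313 and 69.5 CPM in Apoe-/- and 68.9, 121, 55.2 and 75.7 CPM in Mif-2-/-Apoe-/- livers. The 4 Apoe-/- libraries other than replicate 5 lay above each Mif-2-/-Apoe-/- library, and replicate 5 lay among them. The means were 183 ± 92.4 CPM (SD, n = 5) and 80.2 ± 28.5 CPM (SD, n = 4), with a log2 fold change of -1.19 (95% interval -2.08 to -0.30). This was not called (edgeR unadjusted p = 0.0126, adjusted p = 0.205; DESeq2 adjusted p = 0.095). Per 1000 *Alb* counts, *Cd74* was 2.04 to 3.51 in Apoe-/- and 1.39 to 2.34 in Mif-2-/-Apoe-/- livers, and the groups overlapped (two-sided exact permutation test, p = 0.0635).

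The genes of the classical MHC class II molecules, which CD74 accompanies through the cell, were likewise lower on average in Mif-2-/-Apoe-/- livers, without passing the edgeR test. *H2-Aa* had 113 to 489 CPM in Apoe-/- and 90.8 to 177 CPM in Mif-2-/-Apoe-/- livers, and its log2 fold change was -1.25 (edgeR adjusted p = 0.177). *H2-Ab1* had a log2 fold change of -1.29 (adjusted p = 0.174; DESeq2 adjusted p = 0.0475) and *H2-Eb1* of -0.77 (adjusted p = 0.342). Relative to the mean of these 3 genes on the log2 scale, *Cd74* was -0.543 ± 0.303 (SD, n = 5) in Apoe-/- and -0.557 ± 0.096 (SD, n = 4) in Mif-2-/-Apoe-/- livers. The difference was -0.01 (two-sided exact permutation test, p = 0.984), and without single libraries it lay between -0.11 and 0.10. The *Cd74* difference in CPM was of the size of that of the class II genes in these libraries.

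**Figure D2:**
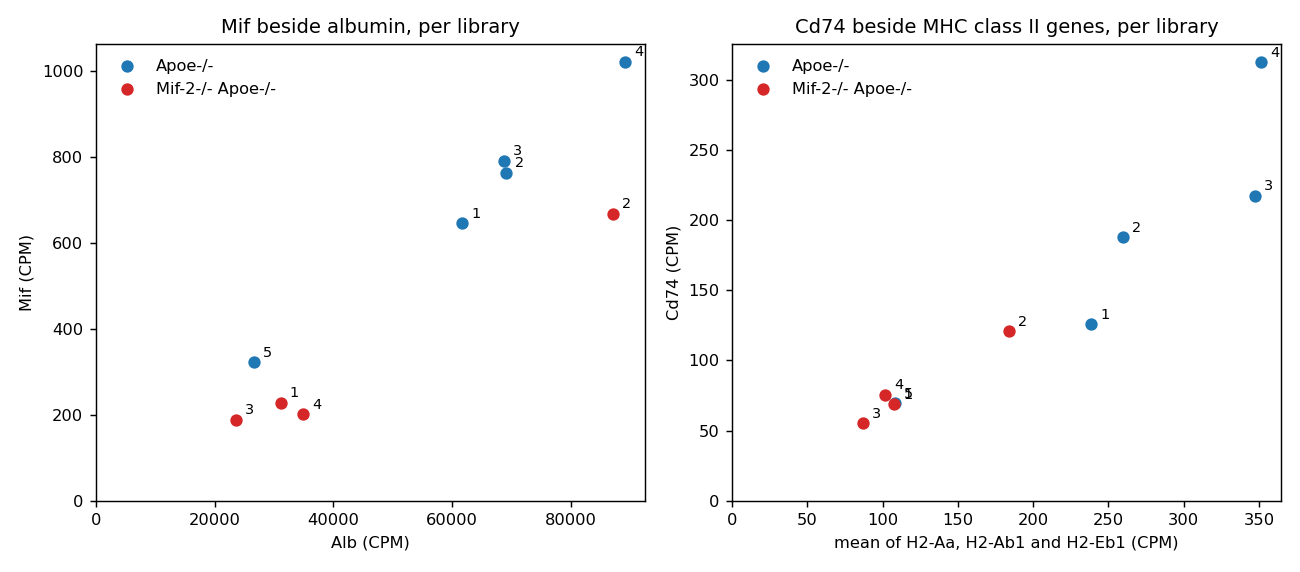
Left, *Mif* against *Alb* (CPM) in each library; right, *Cd74* against the mean of *H2-Aa*, *H2-Ab1* and *H2-Eb1* (CPM), with numbers for replicates. The Mif-2-/-Apoe-/- libraries lie lower in *Mif* at similar *Alb*, between 5.78 and 8.005 counts per 1000 *Alb* counts, while for *Cd74* the libraries of both genotypes fall along one band.

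Of 18 genes for class II molecules, their transcription factors and the proteases that cut the invariant chain, all were tested and none was called by edgeR. At an unadjusted p under 0.05, 6 were lower and 1 higher in Mif-2-/-Apoe-/- livers, beside 6.52% and 8.99% of all genes. DESeq2 called 2, *H2-Ab1* and *Lgmn*, both lower, beside 5.27% of all genes. *Lgmn* encodes legumain, a lysosomal protease (log2 fold change -0.97, edgeR adjusted p = 0.175; DESeq2 -0.94, adjusted p = 0.0369). The median log2 fold change of the list was -0.71, beside 0.17 for all genes tested, and 13 of 18 values were negative. *Ctss*, the protease for the last cut of the invariant chain, had -0.89 (edgeR adjusted p = 0.388). *Ciita*, the master activator of class II transcription, had 1.86 (adjusted p = 0.418), which rested on Mif-2-/-Apoe-/- replicate 3 at 120 CPM, and was -0.32 without it. Kupffer cell and macrophage genes, which mark the main antigen-presenting cell of the liver, summed to 1176 to 2671 CPM in Apoe-/- and 1282 to 1885 CPM in Mif-2-/-Apoe-/- livers. *Clec4f*, a defining Kupffer cell gene and the most abundant of the 10 in that list, had 835 ± 229.8 CPM (SD, n = 5) and 852 ± 132 CPM (SD, n = 4). Of those 10, 7 had a negative log2 fold change, with a list median of -0.27, and none was called by edgeR. At an unadjusted p under 0.05, 2 were lower and 0 higher. The next 3 genes were named after their values were seen. *Cd5l*, a macrophage gene, had 469.6 ± 178 and 205 ± 67.0 CPM (log2 fold change -1.20, edgeR adjusted p = 0.175) and was called by DESeq2 (adjusted p = 0.0348). *C1qa*, a complement component made by macrophages, had -1.12 (edgeR adjusted p = 0.242). *Adgre1*, the F4/80 gene, had -1.62 (edgeR adjusted p = 0.446) from 4 to 95 counts per library. These 3 had the most negative log2 fold changes of the 10. Among the others, *C1qb* had -0.47, *Marco* -0.39, *Timd4* -0.14 and *Cd68* -0.07. The values of *Clec4f* (0.03), *Vsig4* (0.17) and *Csf1r* (0.31) were positive. Dendritic cell genes summed to 10.1 to 32.1 and 15.3 to 98.3 CPM. The 98.3 CPM was Mif-2-/-Apoe-/- replicate 3, and the next highest of its group was replicate 4 at 33.8 CPM. The list was led by *Itgax*, with 7.72 ± 2.79 CPM (SD, n = 5) against 22.3 ± 14.7 CPM (SD, n = 4) (edgeR adjusted p = 0.269). *Ighm*, the most abundant B cell gene, had 49.2 ± 16.7 against 80.8 ± 19.9 CPM (edgeR adjusted p = 0.362). None of the macrophage and dendritic cell genes was at 0 in all libraries, and the part of cell composition in the *Cd74* values was not tested.

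*Cd44*, on chromosome 2, encodes the hyaluronan receptor that pairs with CD74. It was low, with 9 to 49 counts per Apoe-/- library and 8 to 46 per Mif-2-/-Apoe-/- library. The levels were 6.72, 5.09, 4.23, 1.81 and 3.87 CPM against 3.25, 4.54, 11.6 and 5.03 CPM. The groups overlapped, and the highest value was that of Mif-2-/-Apoe-/- replicate 3. The log2 fold change was 0.49 (95% interval -1.33 to 2.31, edgeR adjusted p = 0.832), and -0.028 without that library. The interval leaves room for changes of more than 2-fold in either direction.

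Of 14 genes for CD44's matrix ligands, its cytoskeletal partners and its sheddases, 12 were tested and none was called by edgeR. At an unadjusted p under 0.05, 2 were lower (6.52% of all genes) and 0 higher (8.99%) in Mif-2-/-Apoe-/- livers, and the median log2 fold change was 0.09, beside 0.17 for all genes. DESeq2 called 1, beside 5.27% of all genes. It was *Srgn*, the core protein of the proteoglycan serglycin, with 10.1 ± 9.32 CPM (SD, n = 5) and 0.694 ± 0.228 CPM (SD, n = 4) (DESeq2 adjusted p = 0.0050, edgeR adjusted p = 0.154). *Spp1*, the CD44 ligand osteopontin, had 190 ± 83.6 and 172 ± 102 CPM. *Msn*, which encodes moesin, a linker of CD44 to actin, had a log2 fold change of -0.87 (edgeR adjusted p = 0.520). *Has2*, a hyaluronan synthase gene, was at 0 counts in all 9 libraries.

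The chemokine receptor genes were at or near the limit of detection. *Cxcr4*, the CXCL12 receptor, reached 0, 0, 1, 1 and 1 counts in Apoe-/- replicates 1 to 5 and 0, 0, 2 and 0 in Mif-2-/-Apoe-/- replicates 1 to 4. Each library was at or under the floor of 3 counts, so a difference was not detectable at this depth and no fold change is given. *Cxcr2*, a receptor of neutrophils, had 1 count over the 5 Apoe-/- libraries together, and 0, 0, 52 and 2 counts in Mif-2-/-Apoe-/- replicates 1 to 4. Its 13.1 CPM in Mif-2-/-Apoe-/- replicate 3 stood alone, and the permutation test over the 9 libraries gave p = 0.333. In that library the neutrophil list summed to 64.0 CPM, the highest of the 9 libraries, with most of it from *Csf3r* (61.7 CPM), while *S100a8* was at 1.01 CPM, *S100a9* at 0.756 CPM and *Ly6g*, a defining neutrophil gene, at 0 in all libraries. The same library was also the highest in *Ciita* and *Itgax* (43.8 CPM), and had the most genes detected (18631). How these values are related was not tested.

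*Ackr3*, on chromosome 1 like *Cxcr2* and *Cxcr4*, had 2 to 9 counts in Apoe-/- and 4 to 8 counts in Mif-2-/-Apoe-/- libraries. In CPM these were 0.412, 1.21, 0.939, 0.403 and 1.16 against 0.813, 4.54, 1.76 and 1.14. The groups overlapped, and 3 of the 5 Apoe-/- libraries were at or under the floor. The log2 fold change was 1.27 (95% interval -0.97 to 3.50, edgeR adjusted p = 0.598) and 0.51 without Mif-2-/-Apoe-/- replicate 2, the shallowest library, in which the 4.54 CPM came from 8 counts.

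**Figure D3:**
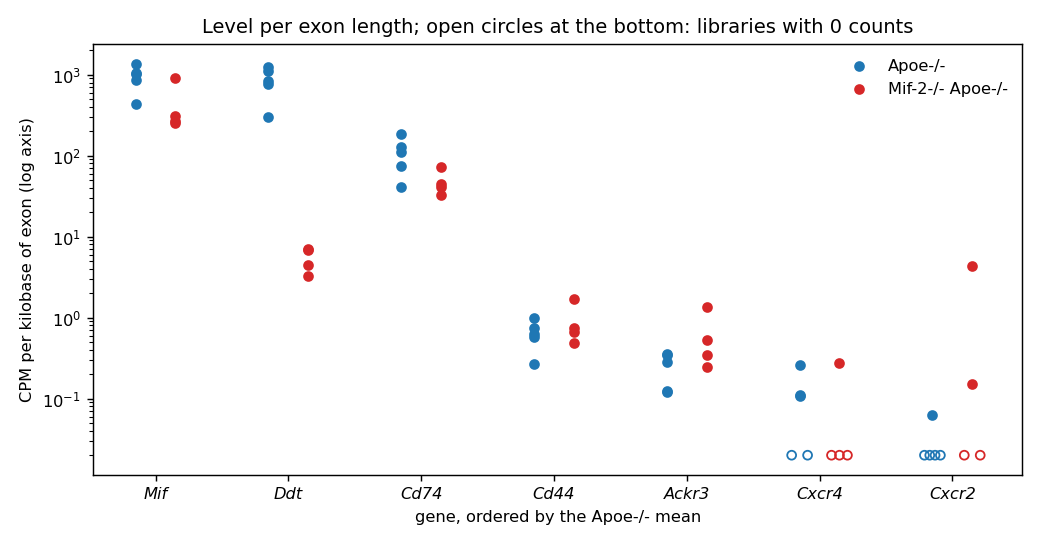
Level of each gene per kilobase of exon (log y axis) in each library, in the order of the Apoe-/- means, with libraries at 0 counts as open circles at the bottom. In Apoe-/- livers the ligand genes and *Cd74* lie between 41.4 and 1371 CPM per kilobase and the other receptor genes at 0.992 or lower.

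Per kilobase of exon, the order in Apoe-/- livers was *Mif* (952 ± 342 CPM per kilobase), *Ddt* (852 ± 367), *Cd74* (109 ± 55.1), *Cd44* (0.641 ± 0.265), *Ackr3* (0.246 ± 0.118), *Cxcr4* (0.0956 ± 0.107) and *Cxcr2* (0.0127 ± 0.0284, SD, n = 5). The ranges of *Mif* and *Ddt* overlapped, with *Mif* higher in 4 of 5 libraries. The ranges of *Ddt* and *Cd74* did not overlap, and those of *Cd74* and *Cd44* were also separate, with means 170-fold apart. From *Cd44* downward, each gene overlapped with its neighbour. In Mif-2-/-Apoe-/- livers *Mif* (432 ± 311 CPM per kilobase) was followed by *Cd74* (47.8 ± 17.0) and *Ddt* (5.40 ± 1.88), and the ranges of neighbours did not overlap among these 3. Replacing the exon union by the longest transcript kept the order.

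Ligands of the chemokine receptors ranged from 0 counts in all libraries (*Cxcl3*) to the level of *Cxcl12*. *Cxcl12*, the ligand of CXCR4 and ACKR3, had a mean of 96.9 ± 25.6 CPM (SD, n = 5) in Apoe-/- livers, compared with 98.1 ± 44.6 CPM (SD, n = 4) when *Mif-2* was deleted (edgeR adjusted p = 0.988). *Cxcl1*, a CXCR2 ligand, had 20.3 ± 10.7 and 18.6 ± 6.18 CPM (adjusted p = 0.949). *Cxcl2*, another CXCR2 ligand, was at 0 in the Mif-2-/-Apoe-/- libraries and highest in Apoe-/- replicate 3 (7.51 CPM from 16 counts), with 0.549 CPM or less in the other 4. *Cxcl11*, which binds ACKR3 and was named after its values were seen, had 6.52 ± 2.75 and 17.3 ± 9.02 CPM (log2 fold change 1.41, edgeR adjusted p = 0.323, DESeq2 adjusted p = 0.0939). Of the 7 ligand genes listed, 5 were tested and none was called by edgeR or DESeq2, with 1 lower (6.52% of all genes) and 0 higher (8.99%) in Mif-2-/-Apoe-/- livers at an unadjusted p under 0.05. That 1 gene was *Cxcl2*, so the count rests on its 0 values in 1 genotype and mainly on Apoe-/- replicate 3. It cannot show a shift of the ligand genes as a list. Over the 5 tested genes the median log2 fold change was 0.02, beside 0.17 for all genes.

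Of 24 genes of the pathways downstream of the receptors (SRC and PI3K to AKT, MAP kinases, Gi proteins, β-arrestins and AMP-activated protein kinase), all were tested and none was called by edgeR or DESeq2. At an unadjusted p under 0.05, 2 were higher (8.99% of all genes) and 1 lower (6.52%) in Mif-2-/-Apoe-/- livers, and the median log2 fold change was 0.23, beside 0.17 for all genes. *Akt1* had 78.4 ± 24.1 and 89.8 ± 27.6 CPM (edgeR adjusted p = 0.836), and *Akt2*, the main AKT of insulin signalling in liver, had 88.7 ± 14.1 and 55.1 ± 13.5 CPM (log2 fold change -0.69, adjusted p = 0.314). The catalytic AMP-activated protein kinase subunits were low, with *Prkaa1* at 4.29 ± 2.27 and 5.52 ± 4.35 CPM and *Prkaa2* at 0.82 ± 0.93 and 0.863 ± 0.649 CPM (adjusted p = 0.903 and 0.993).

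Of 11 genes for proteins that bind MIF inside or outside the cell, all were tested and none was called by edgeR. At an unadjusted p under 0.05, 2 were lower (6.52% of all genes) and 1 higher (8.99%) in Mif-2-/-Apoe-/- livers. A median log2 fold change of -0.62 stood beside 0.17 for all genes. *Prdx1*, which encodes the peroxide-reducing enzyme peroxiredoxin 1, had 409, 470.2, 679.8, 898 and 239 CPM in Apoe-/- and 89.3, 346, 75.8 and 94.0 CPM in Mif-2-/-Apoe-/- livers. Replicate 2 of the Mif-2-/-Apoe-/- group again lay above the lowest Apoe-/- library, and the other 3 lay below each of them. The log2 fold change was -1.84 (edgeR adjusted p = 0.147, DESeq2 adjusted p = 0.0234). DESeq2 called 1 gene of the list, *Prdx1*, beside 5.27% of all genes. *Cops5*, the COP9 signalosome subunit JAB1, had -0.81 (edgeR adjusted p = 0.424).

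As a description of covariation, each of the 4 members averaging at least 5 CPM was set beside all genes averaging at least 10 CPM, as log2(CPM + 0.5) over the 9 libraries after the mean of each genotype was subtracted. These points share depth and library composition, so no test is given. The genes most like *Mif* were *Ndufa4* (Pearson r = 0.995), *Atp5g3* (r = 0.992) and *Dbi* (r = 0.990), and *Alb* ranked 31st of 8174 with r = 0.979. Those most like *Cd74* were *Uqcrc2* (r = 0.992), *Lgals1* (r = 0.981) and *Nans* (r = 0.978). Of the class II genes, *H2-Aa* had r = 0.906, *H2-Ab1* 0.905 and *H2-Eb1* 0.805 with *Cd74*. *Alb* had r = 0.901 and *Mif* 0.881 with *Cd74*, so its covariation was not particular to the class II genes. Those most like *Ddt* were *Rras* (r = 0.961), *Herpud1* (r = 0.961) and *Coq9* (r = 0.949), and *Mif* had r = 0.479, with 4 of the 9 *Ddt* values resting on 6 to 27 counts. For *Cd44*, *Oaz2* (r = 0.949), *Mllt1* (r = 0.937) and *St7l* (r = 0.930) ranked highest.

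**Figure D4:**
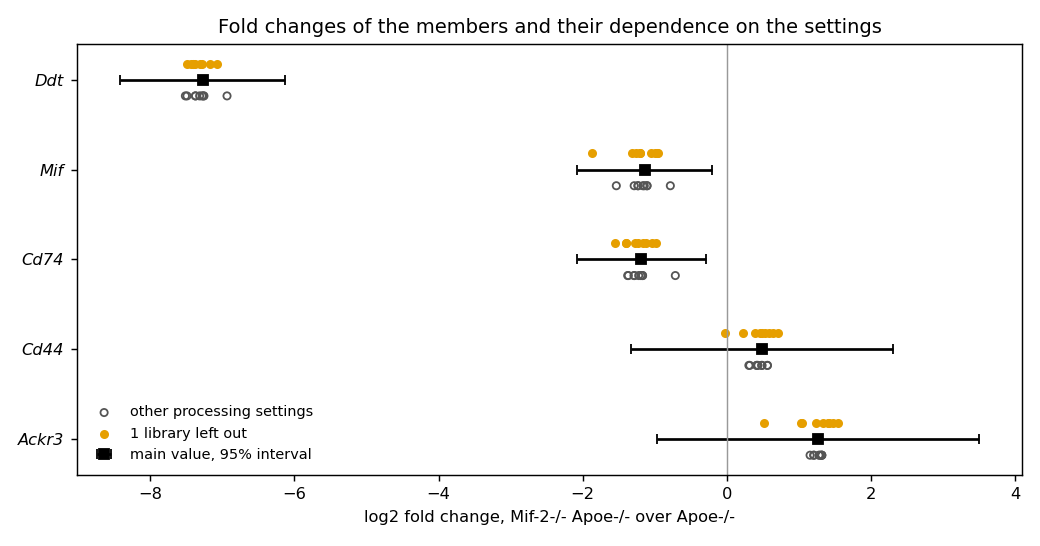
Log2 fold change of Mif-2-/-Apoe-/- over Apoe-/- livers for the 5 members with a reported fold change: black squares with 95% intervals for the main value, open circles for other processing settings, and orange points with 1 library left out. *Ddt* stays below -6.9, *Mif* and *Cd74* stay negative, and *Cd44* comes to -0.028 without 1 library.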

How the data were processed

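RNA from lysates of frozen, OCT-embedded liver sections was made into Smart-seq2 libraries (oligo-dT priming) and sequenced in paired-end mode. Per the labels and the study's methods, the authors used FastQC for read quality, cutadapt for trimming and HISAT2 for alignment to mm10, and counted reads on exons; versions and strand setting are not given in the sources used here. The deposited values are raw whole-number counts for each Entrez gene. Groups were taken from the sample labels. Symbols for 25275 identifiers came from RefSeq (GRCm38.p6), 1904 had none, and 1 line without an identifier was left out.

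A gene was kept with a minimum of 1 count in 3 libraries of the same genotype, and the 10 most abundant genes by mean CPM were left out. The study's reporting summary gives both steps for its bulk RNA-seq and its methods for liver lysates; the methods for these frozen sections do not state them. The 16860 genes left were tested with edgeR 4.0.16 (quasi-likelihood, TMM, Benjamini-Hochberg) under R 4.3.3. The SE is the log2 fold change over the square root of F, and 95% intervals use the t distribution of that test. Exact permutation tests (scipy 1.17.1) were two-sided on log2(CPM + 0.5), with every regrouping of the libraries enumerated, by doubling the smaller tail. The study's methods name DESeq2 as the test for these sections. Here DESeq2 1.42.0 was an alternative and gave no adjusted p for 9102 genes. It was run on each gene with at least 1 count in any library, with the 10 most abundant genes kept. The numbers of genes called by edgeR and DESeq2 thus differ in gene set as well as in test. The edgeR fit was tested on simulated counts with known changes. It called 61 of 99 genes changed by a log2 fold of 4, so a gene that was not called may still have changed. Total counts were 2318148 to 10764182 per library, and replicates differed by more than sampling noise.

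The members, gene lists, tests and named genes (the members, list genes past the threshold, a fixed set of ligands and partners, the leading gene of each marker list, and the 3 genes most like each member) were chosen with earlier results of these data known. The ratios to *Alb* and *Apoa1* were added after the values were seen. Coding sequences were read from GENCODE M21. The summed level of the B cell genes is not reported here.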

Additional observations from a re-analysis of the deposited data

Results flagged for a closer look

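In each genotype, the highest and lowest library was set against the rest of its group with Dixon's criterion, for the 7 genes and 4 ratios (22 groups, of which chance gives about 1 in 20). Among Mif-2-/-Apoe-/- libraries, replicate 2 stood apart for *Mif* at 668 CPM, where the others had 189 to 228 CPM, and for the log2 ratio of *Cd74* to *Alb* at -9.49, where the others had -8.85 to -8.74. Replicate 3 stood apart for *Cxcr2* at 13.1 CPM, where the others had 0 to 0.457 CPM. Replicate 3 also stood apart for *Cxcr4* at 0.504 CPM and Apoe-/- replicate 5 for *Cxcr2* at 0.194 CPM, with the other libraries of the group at 0, and these came from 2 counts and 1 count.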

How the results depend on the processing

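The alternatives were RLE and TMMwsp scaling, no filter, edgeR's own filter, no exclusion of the 10 most abundant genes, exclusion of 1086 Gm, Rik, rRNA and mitochondrial genes, DESeq2, a replicate block, a covariate for the counts taken by the 10 most abundant genes, other pseudocounts and lengths, and each library left out. *Ddt* was called under each of them, *Cd74*, *Cd44* and *Ackr3* under none, and the fold changes of *Mif* and *Cd74* stayed negative. With single libraries left out, the log2 fold change was -1.88 to -0.95 for *Mif* and -0.028 to 0.70 for *Cd44*, and -0.32 to 2.84 for *Ciita*. The members called numbered 1 to 2 and the list genes called 0 to 2 (2 without Mif-2-/-Apoe-/- replicate 2). The list genes called were 4 by DESeq2, of 74 listed, beside 5.27% of all genes, and 1 with the covariate (*Prdx1*). In the exact permutation tests without single libraries, the difference in mean log2 was -1.69 to -1.08 for *Mif* (p = 0.0476 with all libraries, 0.0357 to 0.107 without one) and -1.38 to -0.84 for *Cd74* (p = 0.0635 with all libraries, 0.0286 to 0.143 without one, the lowest without Apoe-/- replicate 5), that of *Cd74* to class II genes -0.11 to 0.10, and that of *Cd74* to *Alb* -0.59 to -0.30 (p = 0.0635 with all libraries, 0.0286 without Apoe-/- replicate 1, otherwise 0.107 to 0.143). With TMMwsp, the *Cd74* permutation difference was -1.25 (p = 0.0476), and with *Apoa1* in place of *Alb* its log2 ratio differed by -0.97 (p = 0.0159); the cause was not tested. Over all genes, 22 were called, against 739 by DESeq2, 35 with the covariate, and 9 to 262 with 1 library left out (262 without Mif-2-/-Apoe-/- replicate 2, and 52 higher and 74 lower without Apoe-/- replicate 5).

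The labels share replicate numbers 1 to 4, which did not pair the samples: same-numbered libraries had correlations of -0.022 to 0.147 over 10668 genes, and no Mif-2-/-Apoe-/- library correlated best with its own number. With the replicate block, which leaves out Apoe-/- replicate 5, 505 genes were called, 2 members (*Ddt* and *Mif*, the latter with a log2 fold change of -1.53, edgeR adjusted p = 0.0347) and 5 list genes, and the difference of *Cd74* to class II genes was -0.04. Depth limited the receptor genes: *Cxcr4* and, outside 1 library, *Cxcr2* were at or under 3 counts, so no fold change is given for them.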
